A study of Mus musculus with 6 samples.

Results

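The DNA replication and cell-cycle control genes described here are the 89 genes, of 11417 in the deposited table, whose symbols place them among the MCM, GINS, ORC, RFC and RPA subunits, the Cdc genes, the A-, B-, D- and E-type cyclins, the E2F factors, the numbered cyclin-dependent kinases (Cdk) and the Cdk inhibitors. Members were taken by symbol alone, without Cdkn1a and without the Cdc42 names. The rule used no expression values, but it was set with earlier results of these data known. Levels are in RPKM, which divides a gene's reads by its length and by the depth of the library, in 6 libraries of poly(A) RNA.

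The libraries came from 3 mouse mammary cell lines, BC44, HC11 and C57MG, with 2 replicate libraries per line, all untreated and grown on plastic. The medium of BC44 was RPMI with 10% serum and 5 µg/ml insulin, that of HC11 also held 10 ng/ml EGF, and C57MG grew in DMEM that held 10% serum and insulin at 10 µg/ml, and the cells were harvested 2 days after plating. Line and medium therefore cannot be told apart. The labels name no genotype, clone or passage, and do not say whether replicates were separate cultures, so p-values measure the spread between these libraries, which may be technical. The labels' cell type, mammary epithelial, was checked against 16 epithelial markers, of which 14 are in the table. At least 1 RPKM was reached by 11 of the 14 in each BC44 library and by 14 of 14 in HC11, but by 4 and 1 of 14 in C57MG replicates 1 and 2, where the summed level was 139.6 and 65.8 RPKM against 2529 to 5321 in the other lines. Krt14 (2716 and 2736 RPKM) and Krt5 (2012 and 1828) made up most of the BC44 sums, and these 2 genes also most of the HC11 sums. In C57MG replicate 2 Cdh1, Epcam, Esrp1, Esrp2, Ovol1, Cldn3 and Cldn4 were listed at 0. Cldn3 and Krt18 were also listed at 0 in both BC44 libraries, where Krt8 was at 0.038 and 0.064 RPKM. The 15 mesenchymal markers in the table summed to 7803 and 7627 RPKM in C57MG and to 335 to 479 elsewhere. At least 1 RPKM was reached by 15 of 15 in both C57MG libraries, by 8 and 11 in BC44 and by 6 and 7 in HC11. S100a4 (3684 and 3794 RPKM) and Vim (2708 and 2282) made up most of the C57MG sum, and Postn went the other way, at 3.81 and 1.03 RPKM in C57MG against 46.4 to 83.0 elsewhere. The immune markers (2 in the table) summed to 20.0 to 21.9 RPKM in C57MG and 1.52 to 3.00 elsewhere, the endothelial markers (2 in the table) to 0.252 to 2.38 RPKM, and the single adipocyte marker lay between 0.407 and 8.77 RPKM. C57MG thus differed from the other lines in these markers as well as in the genes below, and their part in the results was not tested.

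Before a chromosome is copied, origins are licensed: the origin recognition complex (ORC) and Cdc6 load the ring-shaped MCM2-7 helicase onto DNA in G1 phase. Cdc7 kinase and the cyclin-dependent kinases then recruit Cdc45 and the GINS complex to turn the helicase on, while RPA coats the exposed single strands and RFC loads the sliding clamp for the polymerases. Entry into this phase is driven by D-type cyclins with Cdk4 or Cdk6 and by E-type cyclins with Cdk2, is restrained by the inhibitors of the INK4 and CIP/KIP families, and is carried out in large part by the E2F transcription factors, many of whose targets are the replication genes themselves.

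Estimated depth was 14270000 to 18520000 reads a library, from the spacing of low values. For C57MG replicate 2 and HC11 replicate 2 a depth 2 times higher fitted better, so those estimates are uncertain. The 89 genes held 0.875% to 1.01% of a library's summed RPKM. Genes typical of another line had low values in some libraries. Relative to their BC44 mean, 4 epithelial genes stood in C57MG replicates 1 and 2 at 0.836% and 0.00771% (Krt5), 0.903% and 0 (Epcam), 1.25% and 0.399% (Itgb4) and 4.33% and 2.38% (Krt14). Relative to their C57MG mean, 4 mesenchymal genes stood in BC44 replicates 1 and 2 at 0.609% and 1.98% (Vim), 0.61% and 2.03% (Col1a1), 1.71% and 3.08% (Col1a2) and 6.62% and 10.7% (Col3a1). Each of the 8 was thus unequal between replicates, and their part in the results was not tested. Exons of 38 of the 89 genes overlap exons of a gene on the opposite strand, among them Ccnd2, Ccne2, Cdk4, Cdk6, Mcm7 and Orc6, and whether reads were counted by strand is not stated, so those values are uncertain.

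In each comparison most of the 89 genes differed by less than 2-fold, and a few differed by more. All 89 passed the filter on low values. In the BC44–HC11 comparison, 40 of 89 (44.9%) passed at a limma adjusted p-value under 0.05, beside 47.7% of all 10759 genes tested. The 40 were 26 higher in BC44 (29.2%), beside 24.7% of all genes, and 14 higher in HC11 (15.7%), beside 23.0%. In the BC44–C57MG comparison 63 of 89 (70.8%) passed, beside 71.7% of all genes. Of these, 34 were higher in BC44 (38.2%), beside 37.5% of all genes, and 29 were higher in C57MG (32.6%), beside 34.1%. In the HC11–C57MG comparison 63 of 89 (70.8%) again passed, beside 70.5% of all genes. Here HC11 was the higher line for 34 (38.2%), beside 37.4% of all genes, and C57MG for 29 (32.6%), beside 33.2%. The libraries of the 2 lines did not overlap for 60, 78 and 74 of the 89 genes in these comparisons, beside 73.0%, 87.7% and 86.0% of all genes. The total shares called are near those of all genes. By direction the widest gap is in BC44–HC11, where fewer of the 89 were higher in HC11 than of all genes, a gap that was not tested. The last 2 comparisons share the C57MG libraries and are not independent of each other.

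The sizes of the differences were modest. The median absolute log2 fold change, on the log2(RPKM + 1) scale used throughout, was 0.25 for the 89 genes and 0.30 for all genes in the BC44–HC11 comparison, 0.46 and 0.57 in BC44–C57MG, and 0.42 and 0.53 in HC11–C57MG. Changes of 2-fold or more that passed the test numbered 4, 12 and 11 of the 89 genes (4.49%, 13.5% and 12.4%), where all genes gave 12.5%, 29.8% and 27.0%; the difference in share was not tested. These 2-fold sets were Cdkn2b and E2f2 (higher in BC44) with Ccnd2 and Cdkn2c (higher in HC11) in the comparison of those lines. Over C57MG, BC44 was higher for Cdkn2b, Cdkn2a, Ccne1, Cdk8, Ccnd2, Cdk6, E2f2 and Cdk10, and HC11 for Ccnd2, Cdkn2b, Cdkn2a, Ccne1, Cdk8, Cdk10 and Cdc16. C57MG was higher than BC44 for Cdk14, Cdkn3, Mcm6 and Cdc6, and higher than HC11 for Cdkn3, Cdk14, Mcm6 and Ccne2. In none of the 3 comparisons did 15 genes pass, among them Ccnb1, Cdc7, Mcm3, Mcm8, Mcm9, Orc5, E2f5, E2f7, Cdk7 and Gins2.

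**Figure D1:**
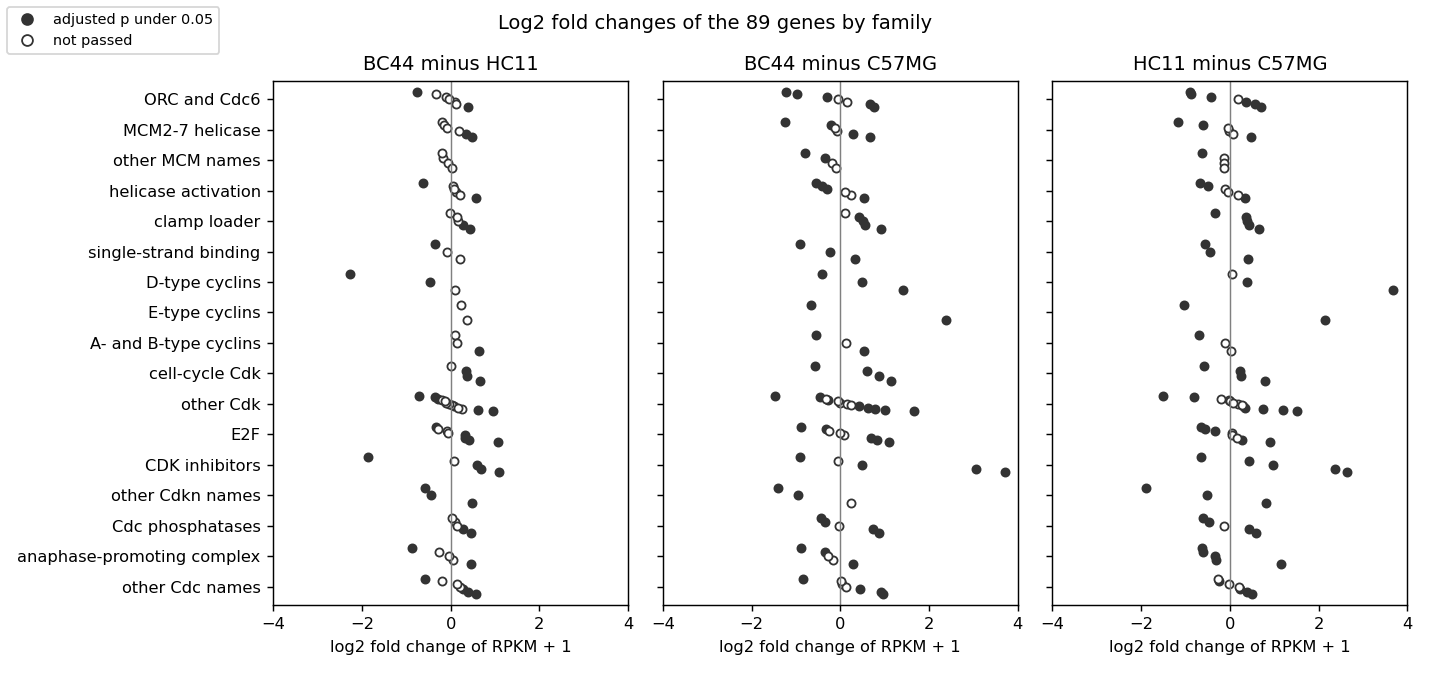
Log2 fold change of RPKM + 1 (horizontal axis) of the 89 genes, in rows by family, for the 3 comparisons; filled points passed the limma test at an adjusted p under 0.05 and open points did not. Most points lie within 1 of zero, and the points beyond 2 are Ccnd2 (-2.27) in BC44 against HC11, Cdkn2b (3.72), Cdkn2a (3.06) and Ccne1 (2.39) in BC44 against C57MG, and Ccnd2 (3.68), Cdkn2b (2.64), Cdkn2a (2.38) and Ccne1 (2.16) in HC11 against C57MG.

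The 6 subunits of the MCM2-7 helicase, which load as a ring with each subunit present a single time, were abundant in all lines, and their summed level was 546 to 691 RPKM in the 6 libraries. Mcm6 was the member that separated C57MG. It was at 78.2 and 88.6 RPKM in BC44 replicates 1 and 2, 91.9 and 84.1 in HC11, and 200.1 and 196 in C57MG, so both C57MG libraries lay above the other 4. Its mean was 2.37-fold higher in C57MG than in BC44 (log2 fold change -1.24 for BC44 minus C57MG, SE 0.09, adjusted p-value 9.7e-06) and 2.25-fold higher than in HC11 (-1.16, SE 0.09, 1.62e-05), while BC44 and HC11 overlapped (-0.08, 0.5). Mcm7 went the other way, with 91.3 and 92.3 RPKM in BC44, at 83.0 and 78.2 in HC11 and at 59.9 and 55.3 in C57MG. BC44 exceeded C57MG in Mcm7 by 0.67 (SE 0.08, 0.000139) and HC11 exceeded it by 0.48 (SE 0.08, 0.000905), without overlap. BC44 over HC11 was 0.19 (0.0828), and 0.24 (0.0314) under quantile normalization. The ratio of Mcm6 to Mcm7 RPKM within a library, which does not depend on how libraries were scaled, was 0.856 and 0.96 in BC44, at 1.11 and 1.08 in HC11 and at 3.34 and 3.54 in C57MG. C57MG therefore had the most unequal set of the 6 transcripts, and its highest subunit exceeded its lowest 3.34 and 3.54-fold, against 1.43 to 1.68-fold in the other 4 libraries.

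Of the 6 subunits 2, 4 and 3 passed in BC44–HC11, BC44–C57MG and HC11–C57MG, beside 47.7%, 71.7% and 70.5% of all genes. The 4 became 2 without C57MG replicate 1 or C57MG replicate 2, and the 2 became 1 without BC44 replicate 2 or HC11 replicate 1. The remaining helicase subunits differed less. Mcm4 was at 68.4 and 76.2 RPKM in HC11, below the 92.5 and 111 of BC44 and the 112 and 107 of C57MG (0.49 for BC44 minus HC11, adjusted p-value 0.00746; -0.60 for HC11 minus C57MG, 0.00149). Mcm5 was at 124 and 149 RPKM in BC44, at 105 and 109 in HC11 and at 112 and 109 in C57MG. Its 2 passing differences, 0.34 (0.0217) over HC11 and 0.30 (0.0245) over C57MG, did not hold without BC44 replicate 2 (0.108 and 0.136), nor did the first without HC11 replicate 1 (0.0643) or the last without C57MG replicate 1 (0.0716), without C57MG replicate 2 (0.113) or under quantile normalization (0.056). Mcm2, at 83.2 and 90.5 RPKM in BC44 against 103.5 and 97.1 in C57MG, passed at -0.21 (0.0437) but not without BC44 replicate 1 (0.199), C57MG replicate 1 (0.253) or C57MG replicate 2 (0.0884), nor without the trend (0.0761). Mcm2 was at 98.7 and 100.3 RPKM in HC11. Mcm3 lay between 84.9 and 109 RPKM in all 6 libraries and passed nowhere. Of the MCM-named genes outside the ring, the initiation factor Mcm10 was at 6.14 and 7.55 RPKM in BC44, at 7.15 and 8.61 in HC11 and at 12.9 and 12.3 in C57MG, and passed for C57MG over both other lines (-0.80, 0.0009; -0.62, 0.00354). The paralogs Mcm8 and Mcm9, which serve in recombination repair, stayed at 7.01 to 8.38 and 1.94 to 2.42 RPKM and passed in no comparison. Mcm3ap, caught by its symbol, is an mRNA export factor rather than a helicase subunit and lay between 9.38 and 12.6 RPKM. It passed by limma only for BC44 minus C57MG (-0.34, adjusted p-value 0.00989).

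**Figure D2:**
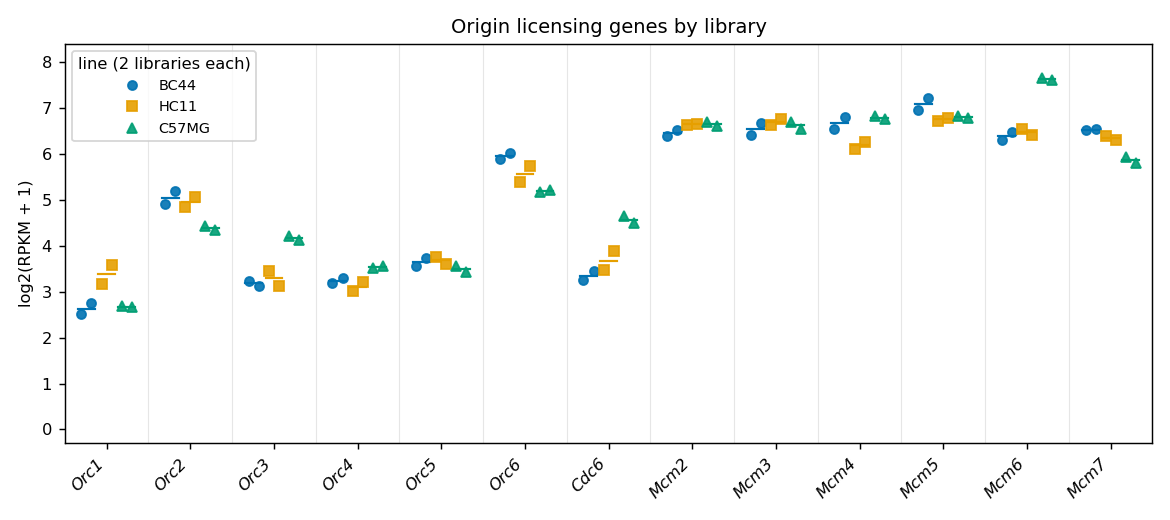
Level in log2(RPKM + 1) (vertical axis) of the 6 ORC subunits, Cdc6 and the 6 MCM2-7 subunits in each library; points are single libraries (2 per line) and bars are line means. The C57MG triangles lie above the other lines for Mcm6, Cdc6, Orc3 and Orc4. They lie below them for Mcm7, Orc2, Orc6 and, narrowly, Orc5.

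To show the DNA in front of the helicase gene that separated the lines, part of the Mcm6 promoter is given (RefSeq, GRCm38.p6, chr1:128359756-128359955, minus strand, bases -250 to -51 relative to the annotated start). Capitals mark matches to the E2F-type octamers TTTCCCGC, TTTGGCGC, TTTCGCGC and TTTGCCGC on either strand, of which this stretch holds 2 that overlap.
Mcm6: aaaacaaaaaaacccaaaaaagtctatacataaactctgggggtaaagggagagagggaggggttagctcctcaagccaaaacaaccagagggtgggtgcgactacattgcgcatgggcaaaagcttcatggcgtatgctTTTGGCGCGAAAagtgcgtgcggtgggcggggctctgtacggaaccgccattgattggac
RefSeq promoters of 300 bases, from 250 before to 50 after a start, were matched by symbol for 73 of the 89 genes. Any of the 4 octamers was found for 17 of the 73 (23.3%), against 4.93% of the 9074 genes of the table with such a sequence and 2.6% of all 27025 genes with a sequence. Mcm3, Mcm5, Mcm6 and Mcm7, 4 of the 5 MCM2-7 genes matched, were among the 17, as were Cdc6, Orc1 and Orc3. Octamers were thus found in the windows of Mcm6, which was higher in C57MG, and of Mcm7, which was lower there. Their part in either level was not tested. The hexamer TTTGAA, the core of the cell-cycle homology region found at genes of G2 and M phase, was in 16 of the 73 (21.9%), against 14.0% of the 9074 genes of the table and 20.2% of all 27025. The 16 included the mitotic genes Ccnb2, Cdc20, Cdk1 and Cdkn3, and also Mcm2, Cdc45, Cdc7, Gins3, E2f2 and Cdkn2b. A match is a run of letters in this window, and promoters with several annotated starts were counted when any of their windows held it.

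Of the 7 genes that bring the helicase to the origin, 5 passed between BC44 and C57MG, 6 between HC11 and C57MG and 2 between BC44 and HC11. The shares of all genes in these comparisons were 71.7%, 70.5% and 47.7%. Cdc6, the loading factor that acts with ORC, was highest in C57MG, at 24.1 and 21.5 RPKM against 8.54 and 9.89 in BC44 and 10.1 and 13.7 in HC11. C57MG lay above both lines without overlap (-1.22 for BC44 minus C57MG, SE 0.15, adjusted p-value 0.000197; -0.89 for HC11 minus C57MG, SE 0.15, 0.00115). Between BC44 and HC11 the difference in Cdc6 was -0.33 (0.112), and it passed without HC11 replicate 1 (-0.53, 0.0141). Orc1, the cell-cycle regulated subunit of the complex, was highest in HC11, at 7.97 and 11.1 RPKM against 4.72 and 5.7 in BC44 and 5.47 and 5.33 in C57MG. HC11 exceeded C57MG by 0.70 (SE 0.16, 0.00509) and BC44 by 0.75 (SE 0.16, 0.00649), the latter with an adjusted p of 0.0537 without BC44 replicate 1. Orc6, the smallest subunit, was the most abundant ORC transcript in every library and was at 58.8 and 64.0 RPKM in BC44, at 41.2 and 52.8 in HC11 and at 35.3 and 36.4 in C57MG. BC44 exceeded C57MG in Orc6 by 0.76 (SE 0.12, 0.000778). Its smaller differences, 0.39 for BC44 over HC11 (0.0313) and 0.37 for HC11 over C57MG (0.0253), did not hold without BC44 replicate 2 (0.154) and without C57MG replicate 1 (0.0972), C57MG replicate 2 (0.0694) or HC11 replicate 2 (0.11), respectively, nor, for the former, without BC44 replicate 1 (0.0728) or HC11 replicate 1 (0.112).

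The core subunits of ORC also split. Orc3 was at 17.5 and 16.5 RPKM in C57MG, above 8.45 and 7.74 in BC44 and 10.0 and 7.75 in HC11, whereas Orc2 was at 20.5 and 19.4 RPKM in C57MG, below 29.3 and 35.4 in BC44 and 27.7 and 32.7 in HC11. Orc3 passed at -0.98 and -0.87 (0.000266 and 0.00055) and Orc2 at 0.66 and 0.57 (0.0016 and 0.00371) for BC44 and HC11 minus C57MG. Orc4 was at 10.4 and 10.8 RPKM in C57MG, above 8.07 and 8.83 in BC44 and 7.05 and 8.32 in HC11. It passed by limma for BC44 minus C57MG (-0.30, adjusted p-value 0.041) and HC11 minus C57MG (-0.42, 0.01). Orc5 ranged from 9.8 to 12.4 RPKM and passed nowhere. The 2 calls of this family in BC44–HC11 became 0 without BC44 replicate 1 and 1 without BC44 replicate 2.

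Among the genes that switch the helicase on, Cdc45, the partner of MCM2-7 and GINS in the active helicase, was at 29.9 and 31.4 RPKM in BC44, at 26.4 and 29.9 in HC11 and at 44.1 and 47.1 in C57MG. C57MG was higher without overlap (-0.56, SE 0.09, adjusted p-value 0.000885; -0.68, SE 0.09, 0.00033), and BC44 and HC11 overlapped. The 4 GINS subunits, which form 1 complex, did not share an order of lines, and 3 of them were each highest in another line: Gins1 in C57MG (19.2 and 21.1 RPKM against 13.1 to 15.2 elsewhere), Gins3 in BC44 (14.9 and 16.3 against 8.57 to 11.9) and Gins4 in HC11 (44.8 and 42.4 against 27.8 to 34.7). Gins2 lay between 9.22 and 11.3 RPKM and passed nowhere. The summed GINS level varied only from 68.5 to 78.1 RPKM over the 6 libraries. Cdc7, the kinase that activates licensed origins, was at 5.98 to 8.28 RPKM and passed in no comparison. Of these 6 genes 4, 3 and 2 passed in BC44–C57MG, HC11–C57MG and BC44–HC11, beside 71.7%, 70.5% and 47.7% of all genes. The 4 became 1 without C57MG replicate 2, and the 2 became 1 without BC44 replicate 1 or BC44 replicate 2.

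At the fork, the clamp loader RFC was lower in C57MG for most subunits. Rfc3 was at 32.4 and 33.0 RPKM in BC44, at 27.2 and 26.6 in HC11 and at 17.3 and 16.1 in C57MG, 0.93 (SE 0.08, adjusted p-value 2.6e-05) and 0.66 (SE 0.08, 0.000197) above C57MG. The large subunit Rfc1 had 25.5 and 25.3 RPKM in C57MG against 32.2 to 36.9 elsewhere, Rfc2 had 56.8 and 54.5 against 70.9 to 82.9, and Rfc5 had 16.5 and 17.3 against 19.9 to 25.1. In BC44 against C57MG 4 of the 5 RFC genes passed, all higher in BC44, and in HC11 against C57MG 5 of 5 passed, 4 of them higher in HC11; the latter count was 3 without C57MG replicate 1 or C57MG replicate 2. Rfc4 was the exception, at 34.1 and 34.0 RPKM in C57MG, 38.7 and 35.3 in BC44 and 30.05 and 24.1 in HC11. For comparison, 71.7% of all genes passed in BC44–C57MG and 70.5% in HC11–C57MG.

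The position of these genes is a property the choice of members did not use. Rfc1, Rfc2, Rfc3 and Rfc5 lie on chromosome 5 and Rfc4 on chromosome 16 in GENCODE M21. All 683 tested genes of chromosome 5 had a median log2 fold change of 0.55 for BC44 minus C57MG and 0.51 for HC11 minus C57MG, and the 11 of the 89 genes located there, which include Mcm7, Cdk6 and Cdk8, had medians of 0.52 and 0.39. On chromosome 8, which holds Orc6, Mcm5, Gins2, Gins3, Gins4, Cdk10, E2f4, Cdkn2aip and Cdc16, the 599 tested genes had medians of 0.64 and 0.68, and these 9 members 0.30 and 0.37. Chromosome 6, which holds Ccnd2, Rpa3, Cdkn1b and Mcm2, had medians of 0.32 and 0.42 over 515 tested genes. Chromosome 14, which holds Cdkn3, was shifted toward C57MG, with medians of -0.56 and -0.28 over 361. Chromosome 1, which holds Mcm6, had medians of -0.11 and -0.05, and chromosome 7, which holds Ccne1, had 0.09 and 0.05. All genes tested had medians of 0.04 and 0.03. The part of a chromosome's shift in the level of a single gene on it was not tested.

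The 3 RPA subunits, which form a heterotrimer on single-stranded DNA, passed in 3 of 3 cases in both comparisons with C57MG, in different directions. Among all genes 71.7% passed in BC44–C57MG and 70.5% in HC11–C57MG. Rpa1 was at 34.9 and 35.5 RPKM in BC44, at 45.1 and 45.4 in HC11 and at 68.3 and 66.1 in C57MG, an order in which no neighbouring lines overlapped (-0.92, SE 0.07, adjusted p-value 1.49e-05 for BC44 minus C57MG; -0.35, SE 0.07, 0.00493 for BC44 minus HC11). Rpa2 was also highest in C57MG, at 24.3 and 22.3 RPKM against 16.5 to 19.8. Rpa3 was lowest there, at 26.3 and 25.1 RPKM against 31.3 to 36.0. The within-library ratio of Rpa1 to Rpa3 was 1.03 and 1.13 in BC44, at 1.25 and 1.36 in HC11 and at 2.6 and 2.64 in C57MG. In BC44 against C57MG the count of 3 was 1 without BC44 replicate 1 and without C57MG replicate 2, since Rpa2 and Rpa3 lost their calls.

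Among the D-type cyclins, which activate Cdk4 and Cdk6 in answer to growth signals, Ccnd2 gave the widest separation of the lines. It was at 11.3 and 12.4 RPKM in HC11, 1.84 and 1.48 in BC44, and was listed at 0 in both C57MG libraries. The estimated floor of 3 reads for this gene was 0.0177 and 0.0208 RPKM in those libraries. HC11 exceeded BC44 7.15-fold (-2.27 for BC44 minus HC11, SE 0.11, adjusted p-value 6.14e-06). Both lines passed against C57MG (1.41, 1.77e-05; 3.68, 2.82e-07), where the fitted sizes depend on the pseudocount and no fold is given. Ccnd1, the main D-type cyclin of mammary epithelium, was by far the more abundant, and Ccnd1 made up 88.9% to 95.5% of the summed D-type cyclin RPKM in each library. It was at 157.8 and 157.8 RPKM in BC44, at 216 and 220.04 in HC11 and at 226 and 196 in C57MG. BC44 was below both other lines without overlap (-0.47, SE 0.09, 0.0035; -0.41, SE 0.09, 0.00331), and HC11 and C57MG overlapped. Ccnd3 was at 15.2 and 15.1 RPKM in BC44, at 13.3 and 15.0 in HC11 and at 10.7 and 10.4 in C57MG, lower in C57MG by 0.48 (0.00229) and 0.38 (0.00725), the latter with an adjusted p of 0.0502 without C57MG replicate 2.

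The partner kinases were highest in BC44 and lowest in C57MG. Cdk6 was at 109 and 102 RPKM in BC44, at 80.9 and 83.7 in HC11 and at 46.0 and 48.5 in C57MG, and passed in all 3 comparisons (0.35, adjusted p-value 0.00675 over HC11; 1.14, 6.46e-06 and 0.79, 5.37e-05 over C57MG for BC44 and HC11). Cdk4 was at 118 and 119 RPKM in BC44, at 97.1 and 87.8 in HC11 and at 82.0 and 73.2 in C57MG. Its difference of 0.61 between BC44 and C57MG passed at 0.000456. The other 2 Cdk4 differences were near the threshold. The 0.36 over HC11 (0.012) did not pass without BC44 replicate 1 (0.0565), BC44 replicate 2 (0.0593) or HC11 replicate 2 (0.0501). The 0.25 of HC11 over C57MG (0.0339) did not pass under quantile normalization (0.0616), without trend (0.0559), with only the 4 libraries compared (0.0547), or without BC44 replicate 1 (0.0543), BC44 replicate 2 (0.0545), C57MG replicate 2 (0.242) or HC11 replicate 1 (0.14). Summed Cdk4 and Cdk6 were 227 and 221 RPKM in BC44, at 178 and 172 in HC11 and at 128 and 122 in C57MG, and the Cdk6 share of that sum was 45.5% to 48.8% in BC44 and HC11 and 36.0% and 39.9% in C57MG.

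The E-type cyclins, which drive Cdk2 at the entry to S phase, exchanged places between the lines. Ccne1 was at 30.04 and 28.8 RPKM in BC44, at 22.6 and 27.2 in HC11 and at 4.84 and 4.73 in C57MG. It was 6.14-fold higher in BC44 (2.39, SE 0.11, adjusted p-value 8.99e-07) and 5.2-fold higher in HC11 (2.16, SE 0.11, 1.82e-06) than in C57MG. Ccne2 was highest in C57MG, at 34.0 and 35.9 RPKM, against 20.2 and 23.2 in BC44 and 13.0 and 21.0 in HC11. C57MG exceeded HC11 in Ccne2 by 1.03 (SE 0.19, 0.00208) and BC44 by 0.67 (SE 0.19, 0.0162), the latter without a call when BC44 replicate 1 (0.0992) or C57MG replicate 2 (0.0583) was left out. Ccne1 made up 55.4% to 63.5% of the summed E-type cyclin RPKM in BC44 and HC11 and 12.5% and 11.6% in C57MG. The sum was 50.3 and 51.9 RPKM in BC44, at 35.5 and 48.2 in HC11 and at 38.9 and 40.6 in C57MG, so BC44 lay above the other 4 libraries, among which HC11 and C57MG overlapped. Neither gene passed between BC44 and HC11 (0.24, 0.106 for Ccne1; 0.37, 0.16 for Ccne2), but both did without HC11 replicate 2 (0.0264 and 0.00338).

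Because Ccne1 was the lowest in C57MG relative to BC44 of the genes without a listed 0 outside the inhibitors, its promoter stretch is given in the same layout (chr7:38107541-38107740, minus strand, GRCm38.p6, bases -250 to -51). It holds no match to the octamers or to TTTGAA.
Ccne1: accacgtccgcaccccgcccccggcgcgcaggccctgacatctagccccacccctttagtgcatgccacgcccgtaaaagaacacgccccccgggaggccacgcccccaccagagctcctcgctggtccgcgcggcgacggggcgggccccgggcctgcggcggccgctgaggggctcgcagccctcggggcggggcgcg

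Cdk2, the kinase of the E- and A-type cyclins, was at 41.5 and 41.0 RPKM in BC44, at 26.1 and 25.7 in HC11 and at 23.0 and 21.0 in C57MG. BC44 stood apart from HC11 by 0.65 (SE 0.08, adjusted p-value 0.000503) and from C57MG by 0.88 (SE 0.08, 3.66e-05). HC11 over C57MG (0.23, 0.0336) did not pass under quantile normalization (0.067), with only the 4 libraries compared (0.0515), or without C57MG replicate 1 (0.0598), C57MG replicate 2 (0.243), HC11 replicate 1 (0.0891) or HC11 replicate 2 (0.0685). Ccna2, the S- and G2-phase cyclin, was likewise highest in BC44, at 226 and 250.2 RPKM against 155 and 149 in HC11 and 158 and 168 in C57MG (0.64, SE 0.08, 0.000616 over HC11; 0.54, SE 0.08, 0.000619 over C57MG).

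The mitotic pair behaved differently. Cdk1, the kinase that drives mitosis, was at 57.9 and 63.5 RPKM in BC44, at 58.6 and 62.8 in HC11 and at 88.3 and 93.8 in C57MG (-0.58, SE 0.08, adjusted p-value 0.000462 and -0.58, SE 0.08, 0.000506 for BC44 and HC11 minus C57MG). Its partner Ccnb1 lay between 42.8 and 52.1 RPKM in all 6 libraries and passed in no comparison. Ccnb2 moved with Cdk1, at 75.0 and 78.3 RPKM in C57MG against 42.2 to 53.0 elsewhere, and passed in both comparisons with C57MG (0.00268 and 0.000927). C57MG was thus above both other lines in Cdk1 and Ccnb2, below BC44 in Ccna2, and not distinguished in Ccnb1. In Ccna2 HC11 minus C57MG was -0.10 (0.302), and -0.22 (0.0492) under quantile normalization.

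**Figure D3:**
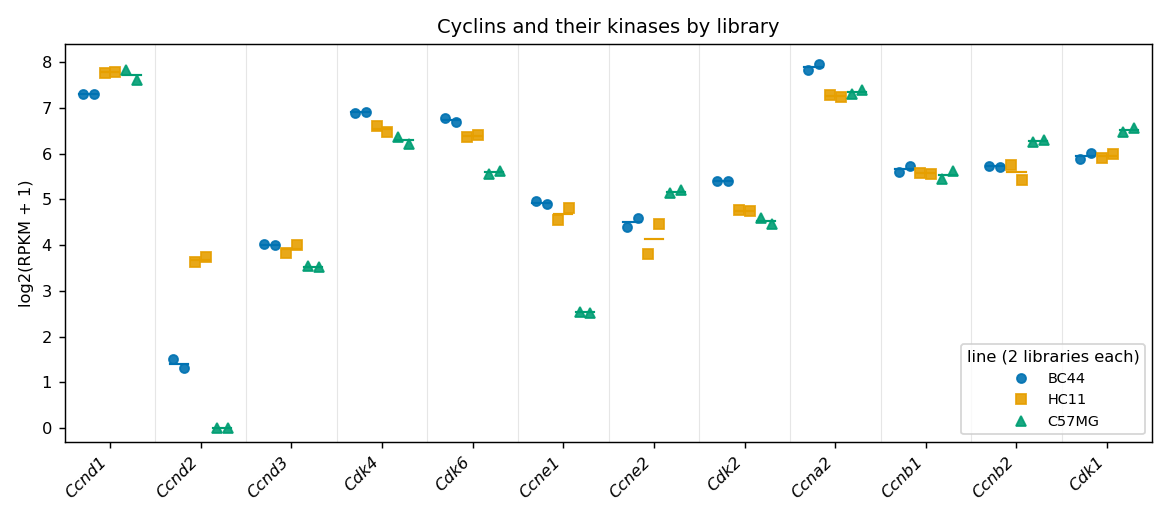
Level in log2(RPKM + 1) (vertical axis) of the cyclins and of the kinases they activate, in each library; points are single libraries (2 per line) and bars are line means. Ccnd2 sits at 0 in both C57MG libraries, Ccne1 falls to 4.84 and 4.73 RPKM there, and the C57MG points are the highest for Ccne2, Ccnb2 and Cdk1.

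The inhibitors held several of the largest differences of the whole set. Of 5 measured, 4 passed between BC44 and HC11, 4 between BC44 and C57MG and 5 between HC11 and C57MG. All genes gave 47.7%, 71.7% and 70.5% in these comparisons. Cdkn1c is absent from the deposited table. Cdkn2a, which encodes the Cdk4 and Cdk6 inhibitor p16 (INK4A) and, from another first exon, p19 (ARF), an activator of p53, was at 118 and 111 RPKM in BC44, at 70.7 and 71.3 in HC11 and at 13.1 and 12.6 in C57MG. The 3 lines did not overlap. BC44 was 8.92-fold (3.06, SE 0.07, adjusted p-value 2.71e-07) and HC11 5.51-fold (2.38, SE 0.07, 3.1e-07) above C57MG, and BC44 was 1.62-fold above HC11 (0.69, SE 0.07, 0.000277). The table has 1 value for the gene, so p16 and p19 messages cannot be told apart.

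Cdkn2b, the neighbouring gene, encodes p15 (INK4B) and followed the same order of lines. It was at 13.7 and 12.3 RPKM in BC44, at 7.0 and 4.46 in HC11 and at 0.119 and 0 in C57MG. The value in C57MG replicate 1 corresponds to an estimated 3 reads, at the floor, and to 0.915% of the BC44 mean, where the 4 epithelial genes given above stood at 0.836% to 4.33% in that library. The differences passed at 1.08 (SE 0.18, adjusted p-value 0.00233) for BC44 over HC11, 3.72 (SE 0.18, 1.46e-06) for BC44 over C57MG and 2.64 (SE 0.18, 9.92e-06) for HC11 over C57MG; the last 2 sizes depend on the pseudocount.

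Cdkn2c and Cdkn2d, the other INK4 genes, did not share this order. Cdkn2c (p18) was highest in HC11, at 68.6 and 62.6 RPKM, then C57MG at 32.4 and 33.4, then BC44 at 16.2 and 18.2, and no neighbouring lines overlapped. HC11 was 3.81-fold above BC44 (-1.87 for BC44 minus HC11, SE 0.09, adjusted p-value 5.63e-06) and 1.99-fold above C57MG (0.97, SE 0.09, 4.8e-05), and C57MG was 1.91-fold above BC44 (-0.90, SE 0.09, 6.43e-05). Cdkn2d (p19 of the INK4 family) was low in all lines, at 6.67 and 5.59 RPKM in BC44, at 4.45 and 3.02 in HC11 and at 6.23 and 6.53 in C57MG. Its lower level in HC11 passed against C57MG (-0.66, SE 0.16, 0.00754) and against BC44 (0.60, SE 0.16, 0.0177), the latter not without BC44 replicate 1 (0.112) or HC11 replicate 2 (0.0569). The makeup of the INK4 messages therefore differed by line: Cdkn2a was 76.4% and 75.5% of their sum in BC44, against 46.9% and 50.4% in HC11 and against 25.3% and 24.0% in C57MG, and Cdkn2c was 10.5% and 12.4%, 45.5% and 44.3%, and 62.5% and 63.6%. The sum was 141 to 155 RPKM in BC44 and HC11 and 51.9 and 52.6 in C57MG.

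Cdkn1b (p27), the CIP/KIP inhibitor of Cdk2, differed least, at 24.1 and 21.1 RPKM in BC44, at 22.1 and 20.8 in HC11 and at 14.7 and 16.7 in C57MG. It was lower in C57MG by 0.50 (SE 0.10, adjusted p-value 0.00333) and 0.43 (SE 0.10, 0.0073), the latter not without C57MG replicate 1 (0.062). Cdkn3, a phosphatase that acts on Cdk1 and Cdk2 and is expressed late in the cycle, carries the same root name and was highest in C57MG, with 80.2 and 81.8 RPKM in C57MG, 30.8 and 28.8 in BC44 and 21.2 and 20.9 in HC11. C57MG exceeded BC44 2.72-fold (-1.41, SE 0.08, 2.2e-06) and HC11 3.85-fold (-1.90, SE 0.08, 6.65e-07), with the lines not overlapping. The tested genes of its chromosome, 14, had medians of -0.56 and -0.28 in these comparisons. Cdkn2aipnl was also highest in C57MG, at 78.1 and 81.6 RPKM against 40.8 to 57.6, and Cdkn2aip, the interactor of ARF, was highest in HC11, at 11.3 and 12.2 RPKM against 6.16 to 8.14.

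The promoter stretches of the INK4 locus are given because Cdkn2a and Cdkn2b lie side by side on chromosome 4 and differed in the same order of lines. Each covers bases -250 to -51 of a RefSeq start in GRCm38.p6 on the minus strand: Cdkn2a at its upstream start (chr4:89294670-89294869), from which ARF is made, Cdkn2a at its downstream start (chr4:89282243-89282442), from which INK4A is made, and Cdkn2b (chr4:89311083-89311282). Capitals mark the E2F-type octamers and TTTGAA on either strand. The upstream Cdkn2a stretch holds 1 octamer, starting at -99, the downstream one holds none, and the Cdkn2b stretch holds 1 TTTGAA, starting at -161.
Cdkn2a upstream: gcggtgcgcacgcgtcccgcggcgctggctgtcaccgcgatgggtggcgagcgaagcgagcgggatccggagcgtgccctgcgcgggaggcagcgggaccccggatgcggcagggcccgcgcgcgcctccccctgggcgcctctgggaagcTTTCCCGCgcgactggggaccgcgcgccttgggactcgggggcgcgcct
Cdkn2a downstream: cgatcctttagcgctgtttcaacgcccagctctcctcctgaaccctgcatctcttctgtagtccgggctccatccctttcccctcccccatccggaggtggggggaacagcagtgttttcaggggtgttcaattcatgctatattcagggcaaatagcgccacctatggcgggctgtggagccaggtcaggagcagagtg
Cdkn2b: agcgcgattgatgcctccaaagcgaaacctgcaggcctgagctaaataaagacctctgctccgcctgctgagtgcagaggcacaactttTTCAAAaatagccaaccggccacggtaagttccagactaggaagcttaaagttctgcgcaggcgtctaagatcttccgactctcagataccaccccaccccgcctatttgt

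Of the 8 E2F genes 5 passed in each comparison, beside 47.7%, 71.7% and 70.5% of all genes in BC44–HC11, BC44–C57MG and HC11–C57MG. E2f1, an activator of replication genes, was highest in C57MG, at 25.9 and 23.9 RPKM, against 15.4 and 17.9 in HC11 and 12.6 and 13.5 in BC44. C57MG exceeded BC44 by 0.88 (SE 0.10, adjusted p-value 0.000138) and HC11 by 0.55 (SE 0.10, 0.00182). HC11 exceeded BC44 by 0.33 (0.0321), a call lost with only the 4 libraries compared (0.0552) and without any of BC44 replicate 1 (0.14), BC44 replicate 2 (0.0731), C57MG replicate 1 (0.0527), C57MG replicate 2 (0.0524) or HC11 replicate 2 (0.138). The other activators were highest in BC44. E2f2 was at 10.98 and 10.7 RPKM in BC44, at 5.39 and 3.97 in HC11 and at 4.42 and 4.56 in C57MG, 2.31-fold and 2.41-fold above HC11 and C57MG (1.07, SE 0.13, 0.000559; 1.11, SE 0.13, 0.000179). E2f3 was at 12.3 and 13.2 RPKM in BC44, at 9.18 and 9.39 in HC11 and at 7.65 and 7.39 in C57MG.

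The repressive and atypical members differed among themselves. E2f4, the most abundant E2F transcript in every library and a partner of the pocket proteins in resting cells, was at 53.4 and 56.4 RPKM in BC44, at 58.7 and 56.9 in HC11 and at 31.8 and 29.3 in C57MG, lower in C57MG by 0.82 and 0.90 (adjusted p-values 4.88e-05 and 3.55e-05). E2f5 lay between 10.0 and 13.8 RPKM and passed nowhere. E2f6 was highest in C57MG, at 18.5 and 21.3 RPKM against 12.1 to 16.7. The atypical repressor E2f7 was at 5.63 to 6.62 RPKM in all 6 libraries and passed nowhere. E2f8 was at 14.1 and 16.4 RPKM in BC44, at 11.5 and 12.3 in HC11 and at 15.6 and 15.0 in C57MG. Its lower level in HC11 passed at 0.33 (0.0297) against BC44 and -0.34 (0.0185) against C57MG. The former was lost with only the 4 libraries compared (0.0546) or without BC44 replicate 2 (0.155), C57MG replicate 1 (0.0537), C57MG replicate 2 (0.0535) or HC11 replicate 1 (0.0963), and the latter without C57MG replicate 1 (0.0996), C57MG replicate 2 (0.0623) or HC11 replicate 1 (0.0685). In BC44–HC11 the 5 E2F calls became 2 with only the 4 libraries compared or without BC44 replicate 2, C57MG replicate 1 or C57MG replicate 2, and 3 without BC44 replicate 1 or HC11 replicate 2. In HC11–C57MG they became 3 without C57MG replicate 1, C57MG replicate 2 or HC11 replicate 1.

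**Figure D4:**
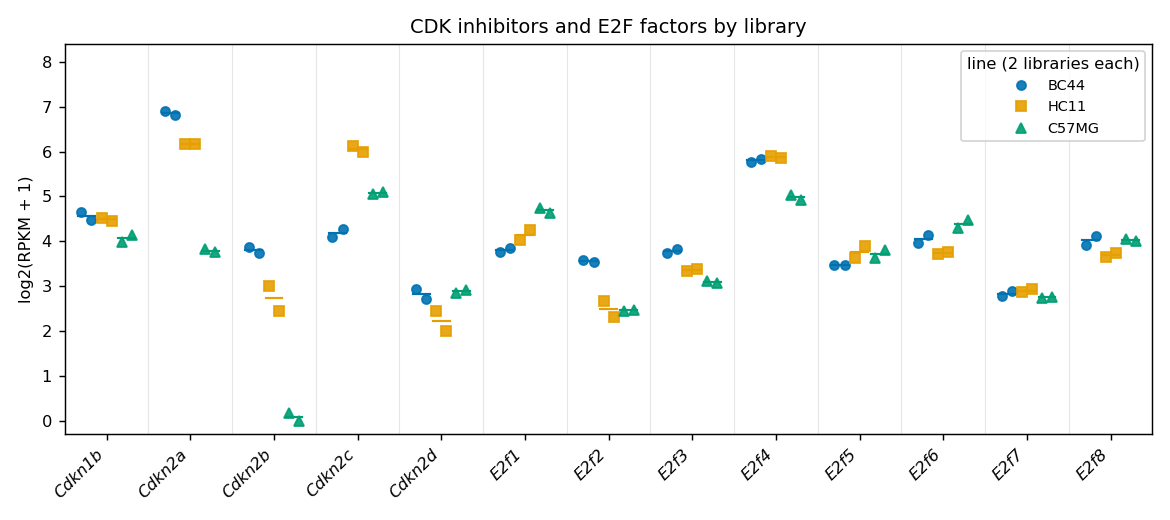
Level in log2(RPKM + 1) (vertical axis) of the Cdk inhibitors and the 8 E2F factors in each library; points are single libraries (2 per line) and bars are line means. Cdkn2a and Cdkn2b descend from BC44 to HC11 to C57MG, Cdkn2c is highest in HC11, and E2f1 is highest in C57MG while E2f2 is highest in BC44.

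The Cdc25 phosphatases, which remove inhibitory phosphates from Cdks, differed in direction. Cdc25a, which acts from G1 onward, was at 20.2 and 23.0 RPKM in BC44, at 13.9 and 17.2 in HC11 and at 11.3 and 11.1 in C57MG, while Cdc25b and Cdc25c, which act at mitosis, were highest in C57MG, at 70.2 and 63.3 RPKM against 41.6 to 55.9 and at 19.1 and 20.9 RPKM against 12.3 to 15.9. Cdc25a over C57MG in BC44 was 0.88 (adjusted p-value 0.00032). Cdc14b was lower in C57MG, at 3.97 and 4.2 RPKM against 6.35 to 7.68, and Cdc14a lay between 0.862 and 1.27 RPKM. Of these 5 genes 4 passed in each comparison with C57MG and 2 in BC44 against HC11. The shares of all genes were 71.7% in BC44–C57MG, 70.5% in HC11–C57MG and 47.7% in BC44–HC11. The 4 became 2 without BC44 replicate 2 in BC44–C57MG and without HC11 replicate 2 in HC11–C57MG, and the 2 became 0 without BC44 replicate 2 and 1 without any other single library.

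Of 5 genes of the anaphase-promoting complex and its activator, 2, 3 and 5 passed in BC44–HC11, BC44–C57MG and HC11–C57MG. All genes gave 47.7%, 71.7% and 70.5%. Cdc16, a core subunit, was highest in HC11, at 48.6 and 47.8 RPKM against 27.0 and 25.2 in BC44 and 22.2 and 20.2 in C57MG (-0.86 for BC44 minus HC11, SE 0.08, adjusted p-value 0.000164; 1.15 for HC11 minus C57MG, SE 0.08, 1.33e-05). The difference of 0.29 between BC44 and C57MG (0.0158) did not pass without BC44 replicate 1 (0.082) or C57MG replicate 2 (0.136). The core subunits Cdc26 and Cdc27 were instead highest in C57MG, at 7.46 and 7.65 RPKM against 3.46 to 4.94 and at 29.4 and 31.2 against 23.4 to 24.3, as was the remaining one, Cdc23, at 9.99 and 9.66 against 6.94 to 8.35. The activator Cdc20 was lowest in HC11, at 63.8 and 59.0 RPKM against 83.3 to 96.7. The count of 3 in BC44 against C57MG fell to 1 without C57MG replicate 2, and the count of 5 to 3 without it.

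The kinases outside the core cycle were included by name. Cdk14, a kinase that works with a membrane-bound cyclin in Wnt signalling, was at 8.26 and 8.21 RPKM in C57MG against 2.42 and 2.25 in BC44 and 2.25 and 2.23 in HC11, 3.53-fold and 3.67-fold higher (-1.47, SE 0.10, adjusted p-value 6.85e-06; -1.51, SE 0.10, 6.88e-06). Cdk14 lies on chromosome 5, whose tested genes were shifted the other way. The Mediator kinases Cdk8 and Cdk19, which are paralogs, did not match each other. Cdk8 was at 47.5 and 53.8 RPKM in BC44, at 39.6 and 51.8 in HC11 and at 15.4 and 15.1 in C57MG (1.67, SE 0.13, 1.7e-05 for BC44 minus C57MG; 1.51, SE 0.13, 3.39e-05 for HC11 minus C57MG), and BC44 against HC11 passed only without HC11 replicate 2 (0.0412). Cdk19 was at 20.8 and 18.8 RPKM in BC44, at 11.9 and 7.99 in HC11 and at 17.1 and 18.5 in C57MG, lower in HC11 than in BC44 (0.95, SE 0.17, 0.00278) and than in C57MG (-0.80, SE 0.17, 0.0034). Cdk10 was at 9.09 and 9.12 RPKM in C57MG against 17.0 to 25.4 elsewhere, lower than in BC44 by 1.00 (0.000728) and than in HC11 by 1.2 (0.000298). The transcription and Cdk-activating kinases Cdk7, Cdk9, Cdk12 and Cdk13 spanned 4.63 to 6.12, 14.5 to 19.5, 6.59 to 9.72 and 10.9 to 14.1 RPKM. Cdk7 passed nowhere. By limma, BC44 was lower in Cdk9 than HC11 (-0.36, adjusted p 0.0132) and C57MG (-0.28, 0.0224). C57MG was lower in Cdk12 than BC44 (0.41, 0.0069) and HC11 (0.34, 0.0168). HC11 was higher in Cdk13 than BC44 (-0.29, 0.0306) and C57MG (0.29, 0.0205). The Cdk13 call against BC44 was lost with only the 4 libraries compared, and whenever any single library was left out. The Cdk9 call of BC44 against HC11 was lost without BC44 replicate 2. The other calls of Cdk9, Cdk12 and Cdk13 are given from the main fit only. Among all genes 47.7%, 71.7% and 70.5% passed in BC44–HC11, BC44–C57MG and HC11–C57MG. Of the 13 genes in this group 5, 8 and 7 passed in BC44–HC11, BC44–C57MG and HC11–C57MG, and the 5 became 3 without BC44 replicate 2.

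Several genes with Cdc names have other functions. The chaperone partner Cdc37, which delivers kinases such as Cdk4 to Hsp90, was at 125 and 135 RPKM in BC44, at 99.99 and 95.6 in HC11 and at 69.8 and 67.0 in C57MG, and its relative Cdc37l1 followed the same order. The ubiquitin-conjugating enzyme Cdc34 was at 99.1 and 107 RPKM in BC44, at 85.5 and 92.0 in HC11 and at 73.5 and 76.6 in C57MG. The splicing factors Cdc5l and Cdc40 lay at 40.7 to 50.02 and 9.24 to 19.8 RPKM, Cdc73 of the PAF1 complex at 6.44 to 8.23 RPKM, and Cdc123 at 24.5 to 30.9 RPKM.

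A list of 45 other genes of the pathway, chosen for their role and all in the table, had 17 passing genes in BC44–HC11, of which 8 favoured BC44. It had 28 in BC44–C57MG, of which C57MG was the higher line for 21 and BC44 for 7, and 31 in HC11–C57MG, of which C57MG was the higher line for 21 and HC11 for 10. These are 37.8%, 62.2% and 68.9%, beside 47.7%, 71.7% and 70.5% of all genes, and without BC44 replicate 1 or BC44 replicate 2 the 17 became 11. The list's median log2 fold change was 0.04, -0.21 and -0.26, beside 0.02, 0.04 and 0.03 for all genes. By direction, C57MG was the higher line for 46.7% of the list in each comparison with it, beside 34.1% and 33.2% of all genes. BC44 and HC11 were higher than C57MG for 15.6% and 22.2%, beside 37.5% and 37.4%. In BC44–HC11 17.8% were higher in BC44 and 20.0% in HC11, beside 24.7% and 23.0%. These gaps were not tested. The sliding clamp gene Pcna was at 139 and 145 RPKM in BC44, at 176 and 179 in HC11 and at 227 and 225 in C57MG. The proliferation marker Mki67 was at 76.5 and 80.6 RPKM in BC44, at 64.8 and 69.8 in HC11 and at 95.7 and 110.4 in C57MG. Skp2, the ubiquitin ligase subunit that directs p27 to degradation, was at 24.5 and 26.3 RPKM in C57MG, 13.3 and 16.6 in BC44 and 8.98 and 9.75 in HC11. Tk1, of the thymidine salvage pathway, was highest in HC11, at 72.1 and 58.7 RPKM against 23.2 to 36.4, and Rrm2, of deoxynucleotide synthesis, was lowest in C57MG, at 73.6 and 61.6 RPKM against 93.6 to 153.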

How the data were processed

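Poly(A) RNA of 3 mouse cell lines was sequenced as strand-directional libraries, 2 per line. The authors deposited 1 table of RPKM values with 1 column per library; STAR and the build mm9 are named in the submitters' processing notes, and the read counter, annotation, gene lengths and gene filter are not given in the sources used here. Depth was estimated from the steps of low RPKM values times GENCODE M21 (GRCm38) exon length within a preset range; 75.0% to 82.1% of low values lay within 0.15 of a whole read, against 30% by chance.

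All 6 libraries entered a single linear model of log2(RPKM + 1), with moderated variances and a trend on mean level (limma version 3.58.1, run in R version 4.3.3), fitted over the 10759 genes with at least 1 RPKM in at least 2 libraries, with two-sided p-values adjusted by Benjamini-Hochberg within each comparison. The fit was tested on simulated data. Python 3.11.15, numpy 2.4.6, pandas 2.3.3 and matplotlib 3.10.9 did the rest. Members, gene lists and tests were chosen with earlier results of these data known. Tests are given for the genes of a list of 30, except Cdkn1c, which is absent from the deposited table. They are also given, per comparison and direction, for the 4 members with the largest passing change whose libraries did not overlap (35 genes in all). Tests of other members, and the 5 pathway genes given with values, were chosen after their values were seen. Alternatives were a pseudocount of 0.1, no filter, a mean of at least 5 RPKM, quantile and median-ratio scaling, fits of the 4 libraries compared, no trend, the replicate block and leaving out each library. GENCODE M21 gave chromosomes, and RefSeq the promoters, by symbol.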

Additional observations from a re-analysis of the deposited data

How the results depend on the processing

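Counts of called genes among the 89 were 27 to 42, 49 to 65 and 47 to 63 in BC44–HC11, BC44–C57MG and HC11–C57MG over 14 alternatives, and 27 to 36, 49 to 65 and 47 to 63 when a library was left out; none moved by over 1.5 times. The 197 single-gene results followed over the alternatives were all 166 calls among the 89 genes and the 31 uncalled results of the 35 genes above. They are therefore not a sample of all results. Of the 166 calls, 52 were lost in at least 1 alternative and 0 changed direction. Same-numbered libraries had correlations of deviations of 0.354 in BC44–HC11, -0.0387 in BC44–C57MG and 0.0379 in HC11–C57MG. BC44 and HC11 libraries of the same number thus shared part of their deviations, and the main fit holds no term for this. With the replicate block in the limma fit 41, 62 and 63 genes were called. Mcm2 in BC44–C57MG then lost its call (adjusted p 0.0568). With 2 libraries a line, leaving out 1 leaves a lone library that is assumed to vary like the others. Genes near 0 RPKM are limited by depth.

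Of the 31 uncalled results followed, those given here changed sign when a library was left out, and other uncalled results were not followed. Their log2 differences in BC44–HC11 ranged from -0.068 to 0.064 for Cdk1 and -0.035 to 0.344 for Cdk8. They ranged from -0.021 to 0.161 for Cdkn1b and -0.167 to 0.011 for Mcm6. In BC44–C57MG they ranged from -0.163 to 0.057 for Cdkn2d, -0.105 to 0.094 for E2f8, -0.2 to 0.048 for Mcm3, -0.245 to 0.021 for Mcm4 and -0.163 to 0.066 for Orc1. In HC11–C57MG they ranged from -0.045 to 0.118 for Ccnb1, -0.048 to 0.156 for Ccnd1, -0.142 to 0.22 for E2f2 and -0.056 to 0.036 for Mcm2, and Ccnd1 was -0.091 under quantile normalization. The cause was not tested.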

Other observations

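The neighbours of the genes that separated the lines were read after the values of those genes had been seen, and are given as values only. Mtap, which lies next to Cdkn2a on chromosome 4 and encodes an enzyme of methionine salvage, was highest in C57MG, where Cdkn2a was lowest, and higher in BC44 than in HC11, as Cdkn2a was, with 115 and 122 RPKM in BC44, at 47.7 and 56.2 in HC11 and at 249 and 234 in C57MG. Beside Mcm6, Dars was at 44.7 and 50.2 RPKM in BC44, at 48.7 and 49.1 in HC11 and at 74.5 and 74.9 in C57MG, and Ubxn4 was at 42.6 and 40.5 RPKM in C57MG against 23.5 to 28.2 elsewhere, so both were higher in C57MG, as Mcm6 was. R3hdm1, farther out, was at 25.1 and 25.3 RPKM in C57MG against 19.7 to 24.3 elsewhere. On the sides of Ccnd2, Tigar was at 2.80 and 2.54 RPKM in C57MG against 6.89 to 7.74 elsewhere, and Parp11 was at 0.706 and 0.51 against 1.08 to 1.22. Uri1, next to Ccne1, lay between 17.9 and 24.1 RPKM in the 6 libraries and passed in no comparison by limma. The genes on the other side of Ccne1 were higher in C57MG, where Ccne1 was lowest: 1600014C10Rik at 3.93 and 3.12 RPKM against 2.16 to 2.67 elsewhere, Plekhf1 at 20.8 and 22.0 against 6.94 to 9.78, and Pop4 at 32.3 and 33.3 against 13.0 to 14.9.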
